A study of Homo sapiens with 24 samples.

Results

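The keratins of columnar and squamous epithelium comprised 10 genes, taken as the rows of the 4 count tables whose Ensembl identifier maps to KRT4, KRT5, KRT6A, KRT7, KRT8, KRT13, KRT17, KRT18, KRT19 or KRT20, out of 61860 gene rows in each table. RNA-seq was carried out on OE33 cells, a line grown from an esophageal adenocarcinoma, in 4 experiments with 3 treated and 3 control libraries each, 24 libraries in all. In the first, male BALB/c-nu mice, 4 weeks old at purchase, were fed a diet high in fat (HFD) or a normal one (ND) for 8 weeks, OE33 cells were injected under the skin, and the xenografts were excised 3 weeks later. In the others, OE33 cells were transfected with an HA-TRIM15 or an empty vector (EV) plasmid for 48 h, with shYY2 or shControl for 72 h, or with shFOXRED1 or an shControl of their own for 72 h. TRIM15 is a ubiquitin ligase, YY2 a zinc finger transcription factor and FOXRED1 an assembly factor of mitochondrial complex I. All 24 libraries therefore derive from 1 cell line, the xenografts grew in a host that lacks T cells but keeps its other cells, and which of several shRNAs was sequenced is not given in the sources used here. The comparisons asked how each keratin differed between the treated and control libraries of each experiment and how its level differed among the 4 control groups.

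Keratins are the intermediate filament proteins of epithelial cells, and a filament forms only from a type I chain paired with a type II chain. Columnar and glandular epithelium is built on the pair of KRT8 (type II) and KRT18 (type I), with KRT7 (type II) and KRT19 (type I) added in ducts, glands and Barrett mucosa, and KRT20 (type I) in gastric and intestinal epithelium. Squamous esophagus makes KRT5 in its basal layer and KRT4 with KRT13 in the layers above, while KRT6A and KRT17 appear in injured, inflamed or rapidly dividing squamous epithelium, together with the close relatives KRT6B, KRT16 and KRT14.

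KRT6A and KRT17 lie among near copies of themselves, so the first question for their values was whether reads can be told from those of their relatives. The coding sequence of KRT6A, 1695 bases, matched that of KRT6B at 97.5% and that of KRT6C at 97.9% of aligned bases, with runs of up to 269 and 349 identical bases, which are longer than a read of 150 bases. The stretch in which these 3 genes differ most is printed here, in capitals where they are not all alike (60 coding bases of exon 2, minus strand, GENCODE 29 on GRCh38), at chr12:52491555-52491614 for KRT6A, chr12:52450439-52450498 for KRT6B and chr12:52472099-52472158 for KRT6C.
KRT6A: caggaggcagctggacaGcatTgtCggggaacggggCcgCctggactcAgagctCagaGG
KRT6B: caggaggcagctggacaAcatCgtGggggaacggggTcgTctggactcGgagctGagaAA
KRT6C: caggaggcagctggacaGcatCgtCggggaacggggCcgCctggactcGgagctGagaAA
Here KRT6B differs from KRT6A at 9 bases and KRT6C at 5. Of the 2161 windows of 150 bases in the KRT6A transcript, 200 (9.25%) also occurred in KRT6B or KRT6C, so a small part of its counts could be split among them. KRT17 is less close to its relatives, at 86.6% identity with KRT14 and 82.0% with KRT16, and its longest identical runs were 59 and 61 bases. The stretch of KRT17 most like both is shown for contrast, with the base that differs in capitals (60 coding bases of exon 1, minus strand, same annotation), at chr17:41624192-41624251 for KRT17, chr17:41586424-41586483 for KRT14 and chr17:41612272-41612331 for KRT16.
KRT17: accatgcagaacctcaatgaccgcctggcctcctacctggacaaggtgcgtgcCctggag
KRT14: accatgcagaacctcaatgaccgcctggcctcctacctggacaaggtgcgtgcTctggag
KRT16: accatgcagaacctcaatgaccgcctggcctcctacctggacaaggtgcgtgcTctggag
Even in that stretch 1 base sets KRT17 apart. No window of 150 bases of KRT17, or of the other 8 keratins besides KRT6A, occurred in a transcript of another gene. Transcripts were searched in their own orientation only, and overlaps with genes on the opposite strand are given below.

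The libraries held between 14299807 and 45994561 counts. The targeted genes followed the labels: TRIM15 had 111, 130 and 181 counts with HA-TRIM15 and 0 in all 3 EV libraries, YY2 had 11, 12 and 11 counts with shYY2 against 43, 40 and 46, and FOXRED1 had 183, 207 and 129 counts with shFOXRED1 against 322, 259 and 254. All 10 epithelial markers on the list used (EPCAM, CDH1, CLDN4 and others) passed the filter on low counts in every experiment. That alone does not mark a cell type, since the endothelial marker ENG passed it in every experiment too. Replicate 3 of the shFOXRED1 group stood apart most from its own replicates, with a chi-square per gene of 7.94 and 6.90 against 2.16 between the others. The keratin values of that experiment are therefore given with and without it, and other values where leaving it out changed a call. Less marked cases were replicate 2 of ND (4.22 and 4.98 against 2.36) and replicate 1 of HA-TRIM15 (3.43 and 4.78 against 1.99). So were replicate 3 of the shControl in the shYY2 experiment (2.91 and 3.21 against 1.47) and in the shFOXRED1 experiment (3.61 and 3.26 against 2.15). Nothing states whether replicate libraries came from separate cultures, or each xenograft from a separate mouse, and p-values then measure only the spread between these libraries, which may be technical.

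The squamous and columnar sets were unequally represented. KRT20 had 0 counts in all 24 libraries, which allows it at most 3 counts per library, or 0.0652 to 0.210 CPM depending on depth (CPM are counts scaled to a common library size). KRT4 had 0 counts in 20 libraries and at most 3 in any library, and KRT5 had 0 in 12 libraries and at most 5. These 3 genes never passed the filter on low counts and were not tested, so the columnar set was measured without its gastric and intestinal member, and the squamous set through KRT6A, KRT13 and KRT17. The 10 keratins together took 0.885% to 1.36% of all counts in a library. KRT19 alone took 0.572% to 1.09% and was the most counted gene of all in 4 libraries and the second in the other 20.

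Levels in the 4 control groups were compared first, on 1 CPM scale normalized over all 24 libraries. KRT19, the smallest keratin, had a mean of 6909 ± 119 CPM in ND xenografts, 6690 ± 135 in EV cells, 6391 ± 271 in the shControl cells of the shYY2 experiment and 9804 ± 318 in those of the shFOXRED1 experiment (mean ± SD, n = 3). The last group lay above the other three, ND lay just above EV, and EV and the shControl of the shYY2 experiment overlapped. KRT8 reached 1883 ± 0.737 CPM in EV, 1814 ± 50.7 in the shControl of the shYY2 experiment, 1215 ± 41.8 in ND and 985 ± 30.8 in the shControl of the shFOXRED1 experiment, and no neighbours in this order overlapped. KRT18 had the same order as KRT8, its partner, with 720 ± 12.3, 703 ± 25.1, 544 ± 25.6 and 453 ± 10.4 CPM, the first and second groups overlapping. KRT7 had another order, with 1545 ± 58.9 CPM in the shControl of the shFOXRED1 experiment, 1054 ± 38.1 in that of the shYY2 experiment, 830 ± 26.5 in ND and 813 ± 36.9 in EV, the last pair overlapping.

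The columnar keratins thus spanned at most a 1.91-fold range between control groups, while KRT6A and KRT17 spanned far more. KRT17 reached 293 ± 12.5 CPM in the shControl cells of the shYY2 experiment, 123 ± 5.56 in ND xenografts, 42.3 ± 1.59 in EV cells and 0.388 ± 0.253 in the shControl cells of the shFOXRED1 experiment. No neighbours in this order overlapped, and the first was 757 times the last, although both are shControl cultures of the same line at the same hour. KRT6A had 13.7 ± 0.635 CPM in the shControl of the shYY2 experiment, 7.97 ± 0.388 in EV and 3.61 ± 0.220 in ND. It had 0.165 ± 0.0988 in the shControl of the shFOXRED1 experiment, an 82.8-fold range with no overlap between neighbours. In that last group KRT6A had 3, 4 and 1 counts and KRT17 had 3, 10 and 5, so the size of either ratio is imprecise. KRT13, an upper-layer squamous keratin, stayed low everywhere, at 1.99 ± 0.379, 1.11 ± 0.0434, 0.937 ± 0.259 and 0.860 ± 0.393 CPM in the order of KRT17, with only the first group apart from the rest.

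The near absence of KRT17 from 1 control group was uncommon among all genes. Of 9314 genes with at least 10 CPM in each of the ND, EV and shYY2-experiment control groups, 2 were under 1 CPM in the shControl group of the shFOXRED1 experiment, KRT17 and ENSG00000241494, which has no symbol in the tables used. The same count was 0 for each of the other 3 control groups. Both limits were chosen after the values of KRT17 were seen. Each control group belongs to 1 experiment, so the group and the experiment cannot be told apart, and with 3 libraries a group an exact two-sided permutation test cannot go below p = 0.1, so ranges are given here in place of tests.

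In the xenografts, the HFD group had more mRNA of both columnar and stress-associated squamous keratins than the ND group. Of the 7 keratins tested, 5 rose and 1 fell by edgeR's quasi-likelihood test (p-values adjusted by Benjamini-Hochberg), where 49.5% of all 17012 genes tested were called, 25.6% as higher and 23.9% as lower. In these bulk samples, fewer cells of a type and less RNA per cell cannot be told apart. The values that follow are CPM normalized within the experiment.

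KRT6A had 10.9, 10.5 and 10.6 CPM in the HFD xenografts and 3.86, 3.45 and 3.77 in the ND xenografts. All 3 HFD values were thus higher than every ND value, and the log2 fold change was 1.55 (SE 0.0929, adjusted p = 1.11e-09), a 2.92-fold rise that ranked 161 by size among the 17012 genes. KRT17 had 251, 238 and 242 CPM against 124, 133 and 121. It rose 1.93-fold without overlap (log2 0.95, SE 0.0403, adjusted p = 1.80e-11), so both of the keratins that mark injured squamous epithelium rose with the diet. KRT13 went the other way, with 16, 8 and 29 counts in the HFD group and 29, 56 and 25 in the ND group, or 0.702, 0.437 and 0.761 CPM against 1.09, 1.17 and 1.16. It fell by 0.78 on the log2 scale (SE 0.230, adjusted p = 0.00974), but DESeq2's Wald test did not call it (adjusted p = 0.0732).

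The columnar keratins moved less. KRT8 had 1609, 1603 and 1557 CPM in the HFD group and 1211, 1298 and 1223 in the ND group, and KRT18, its partner, had 762, 718 and 739 CPM against 530, 586 and 554. Both rose by a similar amount without overlap, KRT8 by 0.35 on the log2 scale (SE 0.0344, adjusted p = 3.20e-07) and KRT18 by 0.41 (SE 0.0393, adjusted p = 2.68e-07). KRT7 had 1152, 1106 and 1119 CPM against 831, 885 and 835 and rose by 0.40 (SE 0.0348, adjusted p = 7.33e-08). KRT19 had 7336, 7329 and 7309 CPM against 6982, 7039 and 7205, and its log2 difference of 0.05 (SE 0.0277, adjusted p = 0.148) did not pass although the groups did not overlap. All 7 keratins were without overlap in this experiment, as were 56.2% of all genes tested, and KRT6A alone was called with at least 2-fold, against 3.83% of all genes. The median log2 fold change was 0.40 over the 7 keratins and -0.01 over all genes.

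Markers of other cell types were followed beside these values because a xenograft holds cells of the host. Of 10 fibroblast markers only COL1A1 was tested, and the list summed to 24.0 to 27.4 CPM in the HFD group and 30.7 to 33.9 in the ND group. Of 10 endothelial markers, ENG and ESAM were tested and higher, with sums of 77.1 to 81.1 and 64.6 to 72.3 CPM, but ESAM was not called by DESeq2's Wald test (adjusted p = 0.0646), with all 24 libraries in 1 fit (adjusted p = 0.0626), or without replicate 3 of HFD (adjusted p = 0.131) or replicate 1 of ND (adjusted p = 0.0658). Of 10 immune markers, 3 were tested. LAPTM5, a lysosomal membrane protein of blood cells, rose from 1.13 ± 0.251 to 3.26 ± 0.169 CPM (log2 1.56, adjusted p = 1.05e-06), by about as much as KRT6A, and the integrin ITGAM fell by 0.32 on the log2 scale (adjusted p = 0.00331). The immune list summed to 17.9 to 18.2 CPM in HFD and 16.6 to 18.3 in ND, with the complement genes C1QA and C1QB at 0 counts and the leukocyte antigen PTPRC at no more than 3 in any xenograft. The epidermal keratinocyte list, with LORICRIN, FLG and the suprabasal keratins, summed to 21.7 to 24.95 CPM against 19.3 to 23.4, with 6 of its 12 genes at no more than 3 counts in any library. Of its 3 genes tested, KRT14 was higher and the cadherin DSG1, named after its values were seen, was lower (log2 -1.52, adjusted p = 0.000313). Some markers of other cell types were also counted in cultured OE33 cells, which hold no host cells. ENG had 53.6 CPM in EV, and 47.7 and 86.0 in the shControl of the shYY2 and shFOXRED1 experiments. In HFD it had 61.0 and in ND 51.5. ITGAM had 4.93 CPM in EV and 10.4 in the shControl of the shYY2 experiment, against 9.05 in HFD and 11.2 in ND. PECAM1 had at most 3 counts and DCN at most 1 in any xenograft. How mouse reads were handled is not given in the sources used here, and the part of host cells in the keratin differences was not tested.

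In cultured cells KRT17 rose with HA-TRIM15, while the simple epithelial pair KRT8 and KRT18 was slightly lower than with EV. Of the 7 keratins tested, 1 rose and 2 fell, where 22.1% of 15745 genes were called by the same test, 12.5% as higher and 9.53% as lower. KRT17 had 117, 105 and 101 CPM with HA-TRIM15 and 42.6, 41.2 and 39.5 with EV. Its groups were far apart, and the 2.63-fold rise (log2 1.39, SE 0.0536, adjusted p = 1.71e-10) ranked 56 by size among all genes tested. It was 1 of 7 keratins called with a change of at least 2-fold, against 0.724% of all genes, and the same gene alone was called with at least 1.2-fold, against 7.63%.

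KRT8 had 1741, 1651 and 1609 CPM with HA-TRIM15 and 1830, 1828 and 1829 with EV, and KRT18 had 639, 591 and 632 against 713, 696 and 689. KRT8 fell by 0.13 (SE 0.0296, adjusted p = 0.00502) and KRT18 by 0.17 (SE 0.0330, adjusted p = 0.00203) on the log2 scale, in both cases with no overlap. KRT6A, the other stress keratin, had 9.45, 8.32 and 10.4 CPM against 7.35, 8.08 and 7.79. Its HA-TRIM15 values all lay above EV, but the log2 difference of 0.28 (SE 0.1004, adjusted p = 0.0622) did not pass; it passed with the counts of KRT6B and KRT6C added (adjusted p = 0.0320). KRT7 differed by 0.06 (SE 0.0361, adjusted p = 0.229) and KRT13 by 0.45 (SE 0.251, adjusted p = 0.220), both with overlapping groups.

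KRT19 had 6606, 6002 and 5769 CPM with HA-TRIM15 and 6594, 6343 and 6560 with EV. Replicate 1 of HA-TRIM15 lay among the EV values and the other two below them, and the log2 difference of -0.09 (SE 0.0379, adjusted p = 0.123) did not pass. Without that replicate it was -0.14 (adjusted p = 5.29e-05). In this experiment 4 of the 7 keratins were without overlap, against 37.7% of all genes tested.

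The shYY2 experiment changed all 7 keratins tested, 1 upward and 6 downward, on a background in which 75% of 16006 genes were called, 36.8% as higher and 38.1% as lower. KRT19, the most abundant keratin, rose, while the type II keratins among these 7, KRT6A, KRT7 and KRT8, fell. This does not extend to every keratin outside the 7, as KRT80 rose from 166 to 368 CPM with shYY2 (log2 1.14, adjusted p = 1.41e-14 by the same test). KRT19 had 10216, 10127 and 9775 CPM with shYY2 and 6630, 6569 and 6128 with shControl. Every shYY2 value exceeded every control value, a 1.56-fold rise (log2 0.64, SE 0.0285, adjusted p = 9.11e-12).

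KRT8 had 1182, 1176 and 1162 CPM with shYY2 and 1876, 1835 and 1775 with shControl. It fell by 0.64 on the log2 scale (SE 0.0260, adjusted p = 2.93e-12), so the leading type I and the leading type II keratin changed by like amounts in opposite directions. KRT18 had 569, 578 and 564 CPM against 729, 718 and 681 and fell by 0.31 (SE 0.0295, adjusted p = 8.66e-08), less than its partner. KRT7 had 986, 998 and 1002 CPM against 1079, 1090 and 1018, groups that lay close without touching. It fell by 0.09 (SE 0.0286, adjusted p = 0.00754), a call that was lost when all 24 libraries entered 1 fit (log2 -0.06, adjusted p = 0.248).

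The largest decrease among the keratins was that of KRT6A. It had 25, 11 and 14 counts with shYY2 and 251, 245 and 261 with shControl, or 1.52, 0.660 and 0.757 CPM against 13.8, 14.5 and 13.2. All control values were far above the shYY2 values, and the gene was 14.1-fold lower (log2 -3.82, SE 0.178, adjusted p = 1.55e-11), rank 30 by size among the genes tested. With the counts of KRT6B and KRT6C added to it, which share part of its sequence, the decrease was 6.15-fold (log2 -2.62, adjusted p = 7.35e-13). KRT17 had 117, 117 and 116 CPM against 306, 300 and 282 and was 2.54-fold lower, again without overlap (log2 -1.34, SE 0.0346, adjusted p = 1.62e-14). KRT13 had 1.28, 1.26 and 1.35 CPM against 1.92, 2.42 and 1.66 and fell by 0.61 (SE 0.210, adjusted p = 0.0153). The call for KRT13 was lost with DESeq2's Wald test (adjusted p = 0.0990), with all 24 libraries in 1 fit (adjusted p = 0.0550) and without replicate 2 of shControl (adjusted p = 0.0795). KRT6A and KRT17 were 2 of 7 keratins called with a change of at least 2-fold, where 19.6% of all genes were. All 7 keratins were without overlap, as were 76.3% of all genes tested.

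With shFOXRED1, 5 keratins were tested and 3 fell, all of them columnar, where 36.6% of 15730 genes were called, 16.8% as higher and 19.7% as lower. Without replicate 3 of shFOXRED1, 4 of the 5 were called, 3 lower and KRT19 higher, where 41.9% of all genes were, 19.6% as higher and 22.2% as lower. Replicate 3 of shControl stayed in that fit, although libraries of the same number deviated together in this experiment (correlation of 0.350 for number 3). It was the lowest control library for KRT7, KRT8, KRT18 and KRT19, and a fit without the pair was not run. KRT7 had 1384, 1349 and 1166 CPM with shFOXRED1 and 1567, 1600 and 1496 with shControl. KRT8 had 913, 892 and 771 CPM against 1014, 998 and 960, and KRT18 had 394, 401 and 359 against 464, 459 and 446. In all 3 genes the shFOXRED1 values lay below the control values, and replicate 3 of shFOXRED1, the library that stands apart, was the lowest. KRT7 fell by 0.26 on the log2 scale (SE 0.0548, adjusted p = 0.00130), or by 0.19 without that library (adjusted p = 3.03e-05). KRT8 fell by 0.21 (SE 0.0555, adjusted p = 0.00751), or by 0.14 without it (adjusted p = 0.00195). KRT18 fell by 0.25 (SE 0.0512, adjusted p = 0.00110), or by 0.20 without it (adjusted p = 6.79e-05).

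KRT19 had 10682, 10445 and 9037 CPM with shFOXRED1 and 10020, 10034 and 9534 with shControl. Replicates 1 and 2 of shFOXRED1 lay above all control values and replicate 3 below them. The log2 difference of 0.03 (SE 0.0482, adjusted p = 0.691) did not pass. Without replicate 3 of shFOXRED1, and with that of shControl kept, it was 0.10 (adjusted p = 0.00335). KRT13 had 9, 15 and 3 counts against 24, 10 and 9, with overlapping groups and a log2 difference of -0.75 (SE 0.491, adjusted p = 0.251), or of -0.43 without replicate 3 of shFOXRED1 (adjusted p = 0.536). KRT6A, with 3, 1 and 1 counts against 3, 4 and 1, and KRT17, with 18, 5 and 2 counts against 3, 10 and 5, were too low to be tested. A change of either gene could therefore not be measured in this experiment. Of the 5 keratins tested, 3 were without overlap, against 46.7% of all genes, and 0 were called with a change of at least 1.2-fold, against 29.5%.

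**Figure D1:**
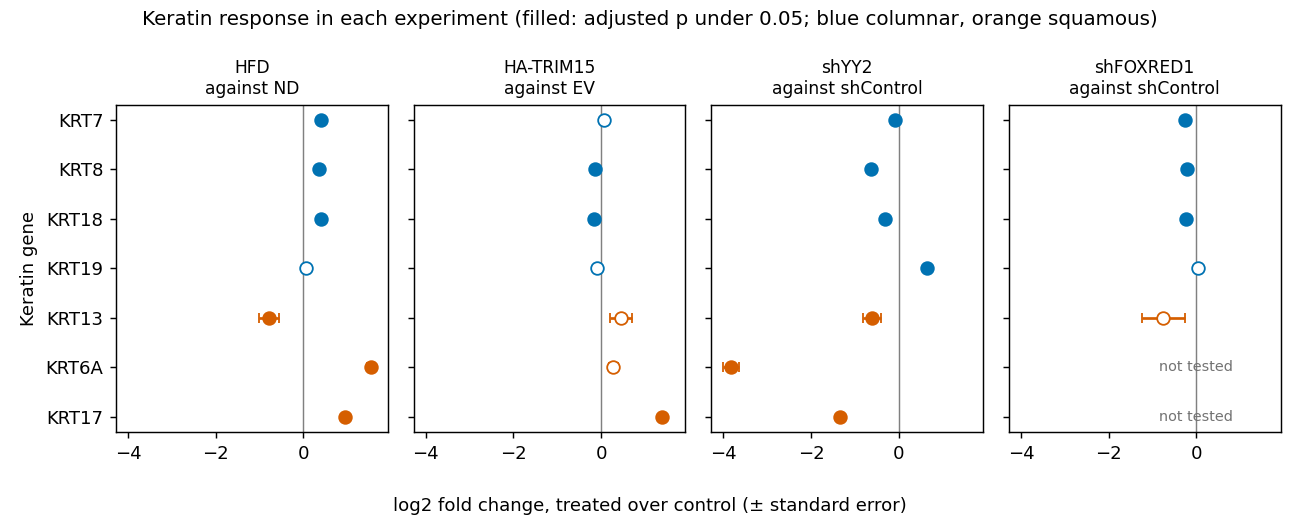
Log2 fold change of each keratin, treated over control, in the 4 experiments (x axis; bars ± 1 SE; filled points passed an adjusted p of 0.05; blue columnar, orange squamous; KRT6A and KRT17 not tested with shFOXRED1). KRT17 lies at 0.95 in HFD, 1.39 with HA-TRIM15 and -1.34 with shYY2, and KRT19 lies farthest from 0 with shYY2, at 0.64.

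The relatives that squamous cells make together with KRT6A and KRT17 were read in the same libraries, since their counts could be mixed and their roles are close. In the HFD xenografts KRT6B rose with KRT6A, from 7.72 ± 0.383 to 14.5 ± 0.449 CPM (log2 0.90, adjusted p = 6.14e-08). KRT14, the basal partner of KRT5, rose from 1.74 ± 0.250 to 4.02 ± 0.0803 CPM (log2 1.24, adjusted p = 2.29e-06), and KRT16, the usual partner of KRT6A, from 34.4 ± 0.422 to 57.7 ± 1.62 CPM (log2 0.75, adjusted p = 6.71e-10). All 3 were without overlap. KRT6C, with 7, 2 and 9 counts in HFD and 3, 5 and 0 in ND, and KRT5, with at most 2 counts in a xenograft, were too low to be tested.

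With HA-TRIM15, KRT14 rose from 1.85 ± 0.280 to 5.08 ± 0.188 CPM (log2 1.45, adjusted p = 6.99e-06), by much the same factor as KRT17. KRT16 rose from 11.6 ± 0.227 to 16.9 ± 1.67 CPM (log2 0.55, adjusted p = 0.000342), while KRT6B, with 4.90 ± 0.558 and 5.98 ± 0.879 CPM, overlapped and did not pass (log2 0.28, adjusted p = 0.143). With shYY2 the group split. KRT6B was lower, at 2.63 ± 0.160 against 8.57 ± 0.715 CPM (log2 -1.70, adjusted p = 5.15e-09), and so was KRT14, at 2.94 ± 0.247 against 6.31 ± 0.744 CPM (log2 -1.10, adjusted p = 2.69e-06). KRT16 moved against them, from 22.3 ± 1.25 to 40.8 ± 1.42 CPM (log2 0.87, adjusted p = 8.72e-10).

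In both groups of the shFOXRED1 experiment KRT6B had at most 8 counts and KRT14 at most 5 in a library, as low as KRT6A and KRT17 there. KRT16 remained measurable, at 4.29 ± 1.29 CPM with shFOXRED1 and 4.20 ± 0.189 with shControl (log2 0.04, adjusted p = 0.913). KRT6C never exceeded 9 counts in a library and was not tested.

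**Figure D2:**
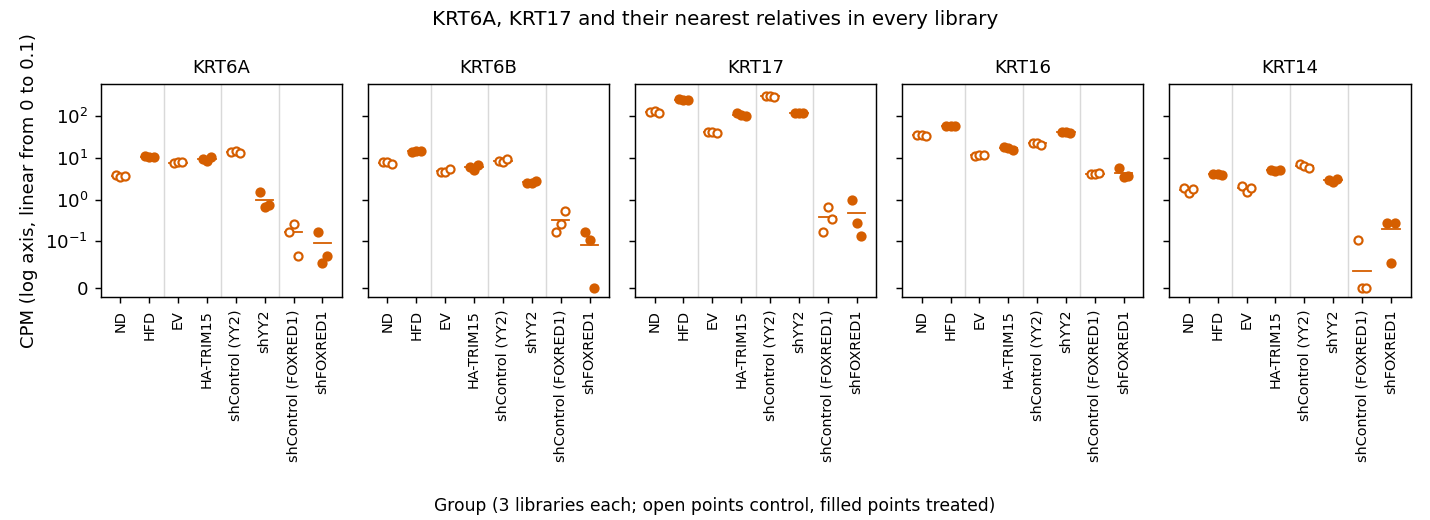
CPM of KRT6A, KRT6B, KRT17, KRT16 and KRT14 in every library, normalized within each experiment (y axis: log above 0.1 and linear from 0 to 0.1; open points control, filled points treated, lines the group means). All 5 are higher in HFD than in ND, whereas with shYY2 KRT16 is higher (40.8 against 22.3 CPM) and the other 4 are lower than in their control.

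The balance between keratins was described on CPM per kilobase of the principal transcript, since levels of different genes compare only per length. KRT19 made up 75.3% ± 0.820 of the summed level of the 10 keratins in ND, 69.9% ± 0.574 in EV, 66.4% ± 0.248 in the shControl of the shYY2 experiment and 80.0% ± 0.0174 in that of the shFOXRED1 experiment (mean ± SD, n = 3). In every control group it alone exceeded the type II keratins among the 10 together. The ratio of type I to type II keratin mRNA, within the 10 genes, was 4.66 ± 0.177, 3.47 ± 0.0940, 3.22 ± 0.0401 and 5.11 ± 0.0177 in the same order. Other keratins, such as KRT80 and KRT15, were left out of both measures. These values rest on the transcript length chosen: with the length of all exons KRT19 made up 83.4%, 80.1%, 76.5% and 86.4%, and the type I to type II ratio was 8.32, 6.53, 5.80 and 8.33.

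The treatments shifted this balance in different directions. In the HFD xenografts KRT19 fell to 70.2% ± 0.349 of the sum and the type I to type II ratio to 3.83 ± 0.0463, below all ND values, while KRT17 grew from 1.23% ± 0.0585 to 2.14% ± 0.0476 of the sum. HA-TRIM15 left both measures overlapping with EV, at 69.5% ± 0.780 and 3.45 ± 0.0941, while KRT17 grew from 0.405% ± 0.0144 to 1.12% ± 0.0167. With shYY2 the KRT19 share was 80.8% ± 0.316 and the type I to type II ratio 6.23 ± 0.129, both above all values of the control. With shFOXRED1 the share was 82.8% ± 0.0763 and the ratio 6.10 ± 0.0165, also above its own control, and without replicate 3 they were 82.8% and 6.09.

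Within the pair that forms the basic filament of columnar cells, the ratio of KRT8 to KRT18 was 2.09 ± 0.0217 in the shControl and 1.66 ± 0.0173 in the shYY2 cells, without overlap. It overlapped between treated and control libraries in the other 3 experiments, although without replicate 3 the shFOXRED1 values of 1.80 and 1.88 lay above the 1.74 to 1.77 of their control. The ratio of KRT7 to KRT8 rose from 0.432 ± 0.0197 in EV to 0.495 ± 0.00281 with HA-TRIM15 and from 0.581 ± 0.0116 to 0.849 ± 0.0140 with shYY2. It was 0.684 ± 0.00266 in ND and 0.709 ± 0.0161 in HFD, and 1.57 ± 0.0300 and 1.51 ± 0.00167 in the shControl and shFOXRED1 groups of that experiment, the latter 1.51 also without replicate 3. Which gene of a pair was higher depended on the length used. With the length of all exons, KRT7 exceeded KRT8 in ND (ratio 1.15), HFD (1.19) and shYY2 (1.43), and the ratio of KRT8 to KRT18 was 1.21 in the shControl and 0.962 in the shYY2 cells. For the KRT19 share and the type I to type II ratio, the direction between treated and control groups, and whether they overlapped, were the same with either length. For KRT8 to KRT18 and KRT7 to KRT8 neither could differ, since another length multiplies the ratio by the same factor in every library. Because these quantities combine the genes under study, they are given as a description without a test.

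**Figure D3:**
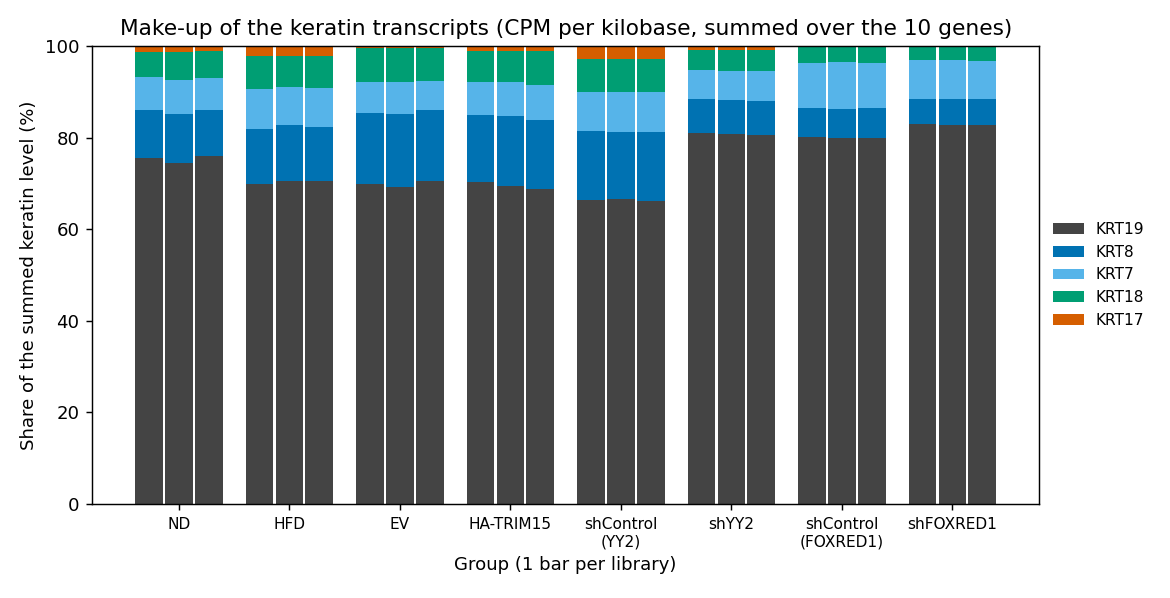
Share of each keratin in the summed keratin level of each library (y axis: percent of CPM per kilobase summed over the 10 genes; 1 bar per library; KRT6A, KRT13 and the genes near 0 are too small to see). KRT19 grows from 66.4% to 80.8% between shControl and shYY2 and shrinks from 75.3% to 70.2% between ND and HFD.

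Whether the experiments differed in their effect on a keratin was tested in 1 fit of all 24 libraries, as the difference between 2 log2 fold changes. The knockdowns were set against each other first, because FOXRED1 also fell in the shYY2 cells (log2 -0.89, adjusted p = 3.31e-09). Of the 5 keratins measured in both experiments, 3 responded differently, where 62.7% of the 14922 genes tested in both did. The effect on KRT19 was higher with shYY2 than with shFOXRED1 by 0.66 on the log2 scale (SE 0.0657, adjusted p = 6.17e-10), and that on KRT8 was lower by 0.39 (SE 0.0615, adjusted p = 2.48e-06). Without replicate 3 of shFOXRED1 these differences were 0.58 and -0.47 (adjusted p = 7.64e-11 and 4.91e-10). KRT18 fell in both experiments, and the difference of -0.03 (SE 0.0587, adjusted p = 0.736) did not pass, nor without that library (-0.08, adjusted p = 0.224). For KRT7 the difference was 0.21 (SE 0.0656, adjusted p = 0.00842), or 0.13 without that library (adjusted p = 0.0387), and it did not pass in a fit of the 12 libraries of these experiments (adjusted p = 0.0521).

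KRT6A and KRT17 entered this fit through the other experiments, and their shFOXRED1 side rests on 1 to 18 counts per library, so no difference is given for them. KRT13 differed by 0.18 (SE 0.454, adjusted p = 0.758), or by -0.14 without replicate 3 of shFOXRED1 (adjusted p = 0.814).

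The effects of the diet and of HA-TRIM15 were compared because TRIM15 was itself higher in the HFD xenografts, with 14, 12 and 24 counts against 1, 0 and 0. Of 7 keratins, 6 responded differently, where 31.9% of the 15536 genes tested in both experiments did. KRT17 rose in both experiments, by 0.44 less in HFD than with HA-TRIM15 on the log2 scale (difference -0.44, SE 0.0879, adjusted p = 0.000282). KRT6A differed the other way, by 1.27 (SE 0.173, adjusted p = 9.70e-07), with log2 fold changes in this fit of 1.55 in HFD and 0.27 with HA-TRIM15. The columnar keratins also separated these experiments, as KRT18 differed by 0.59 (SE 0.0577, adjusted p = 2.81e-09), KRT8 by 0.49 (SE 0.0610, adjusted p = 2.06e-07) and KRT7 by 0.35 (SE 0.0657, adjusted p = 0.000133), each higher in HFD. KRT13 differed by -1.24 (SE 0.405, adjusted p = 0.0207), a call lost without replicate 2 of HFD, replicate 1 of HA-TRIM15, or replicate 1 or 2 of EV (adjusted p up to 0.0573). KRT19 differed by 0.14 (SE 0.0656, adjusted p = 0.111).

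The genes that keratins work with were read from lists chosen for their function, as counts of called genes without a test of any list. Every gene named with a log2 fold change passed the test in that experiment, with an SE of at most 0.192 except for KRT32. The cornified envelope genes, which squamous cells use to seal their surface, had 4 higher and 6 lower of 21 tested in HFD, 7 and 0 of 17 with HA-TRIM15, 5 and 11 of 19 with shYY2, and 1 and 5 of 12 with shFOXRED1. The shares called were 47.6%, 41.2%, 84.2% and 50%, against 49.5%, 22.1%, 75% and 36.6% of all genes, so in HFD the list was near the background. Their median log2 fold changes were -0.12, 0.20, -0.51 and -0.03, beside medians of -0.01, -0.01, -0.01 and 0.01 over all genes. In HFD the extracellular matrix protein ECM1 (log2 -0.87) and the small proline-rich protein SPRR1A (-0.77) fell, while the crosslinking transglutaminase TGM1 rose (0.63), a call that DESeq2's Wald test did not make (adjusted p = 0.0626). With HA-TRIM15, SPRR2A (0.85) and SPRR1A (0.58) rose beside KRT17. With shYY2, involucrin, IVL (-2.94), SPRR3 (-2.16) and SPRR2A (-2.04) fell beside KRT6A. With shFOXRED1, sciellin, SCEL (-2.07), and annexin ANXA1 (-1.23) fell.

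Desmosomes and plakins tie keratin filaments to the cell border, and 7 of their 23 tested genes were higher and 5 lower in HFD, 12 and 2 of 23 with HA-TRIM15, 9 and 10 of 23 with shYY2, and 2 and 9 of 21 with shFOXRED1. This was 52.2%, 60.9%, 82.6% and 52.4% of the genes tested, beside the same shares over all genes, which in HFD and with shYY2 were close to those of the list. In HFD the plakin EPPK1 (epiplakin, log2 0.47) and the desmosomal plakophilin PKP1 (0.44) rose and the plakin PPL (periplakin) fell (-0.37), and PPL rose with shYY2 (0.84), where the filament linker plectin, PLEC (-0.72), and the desmosomal cadherin DSG3 (-1.40) fell. The desmosomal core protein DSP (-0.66) and the cadherin DSC3 (-1.24) fell with shFOXRED1, beside KRT7, KRT8 and KRT18. Median log2 fold changes of the list were 0.01, 0.11, -0.03 and -0.13.

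Among 45 other keratins, 10, 9, 9 and 7 were tested in the 4 experiments, of which 5, 3, 3 and 0 were higher and 2, 0, 4 and 2 lower, or 70%, 33.3%, 77.8% and 28.6% called against 49.5%, 22.1%, 75% and 36.6% of all genes. The 2 that were lower in HFD, named after their values were seen, were KRT15, a basal keratin (log2 -0.30, from 180 ± 7.04 to 146 ± 4.01 CPM), and the hair keratin KRT32 (-1.45). KRT80, an epithelial keratin found near cell borders, rose with HA-TRIM15 (log2 0.24) and with shYY2 (1.14, from 166 ± 3.84 to 368 ± 3.02 CPM). It also rose in HFD (0.55, from 140 ± 3.79 to 205 ± 0.939 CPM), a value added after it was seen, and fell with shFOXRED1 (-0.33). Of the non-keratin intermediate filaments, 0 were higher with HA-TRIM15, shYY2 and shFOXRED1, where 12.5%, 36.8% and 16.8% of all genes were. In the same order 3 of 8, 5 of 7 and 4 of 6 were lower, where 9.53%, 38.1% and 19.7% of all genes were. In HFD 4 were higher and 2 lower of 8, where 25.6% of all genes were higher and 23.9% lower. With HA-TRIM15, NES was called in 1 and LMNA in 2 of the 6 fits that leave out a library (adjusted p up to 0.123 and 0.0858). The nuclear lamin LMNB1 rose in HFD (0.26) and fell with HA-TRIM15 (-0.17), shYY2 (-1.02) and shFOXRED1 (-0.78). Vimentin, VIM, the mesenchymal filament, stood at 1.41 ± 0.404 CPM in the shControl of the shYY2 experiment and 0.905 ± 0.181 with shYY2. That call was made in 2 of 6 such fits (adjusted p up to 0.210). In HFD, a value added after it was seen, VIM was higher, at 1.06 ± 0.239 CPM against 0.486 ± 0.123 in ND (adjusted p = 0.00230), called in 6 of 6 such fits.

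Transcription factors and signals of epithelial differentiation were called higher in 9, 7, 16 and 8 and lower in 6, 2, 3 and 2 of 24, 22, 24 and 21 tested genes. The shares called were 62.5%, 40.9%, 79.2% and 47.6%, beside 49.5%, 22.1%, 75% and 36.6% of all genes. The squamous lineage factors SOX2 (log2 -1.48, 1.83 ± 0.279 against 5.07 ± 0.303 CPM) and TP63 (-0.67) fell in HFD, where the epithelial ETS factor EHF rose (0.70). With HA-TRIM15, KLF4 (0.62), ELF3 (0.47) and GRHL3 (0.45) rose, and with shYY2, TFAP2A rose (1.59, from 58.1 ± 3.64 to 175 ± 11.2 CPM). With shFOXRED1, CEBPA (0.93) and ELF3 (0.51) rose and the Notch ligand JAG1 fell (-0.91). Leaving out replicate 3 of shFOXRED1 changed neither the call nor the direction of any list gene named in that experiment, and the cornified envelope, desmosome and regulator lists then had 1 and 5 of 16, 3 and 9 of 21, and 8 and 4 of 21 genes higher and lower, against 41.9% of all genes called.

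Several keratin values carry a further limit from how genes overlap. KRT8 and KRT18 lie head to head on opposite strands and share 525 exon bases in GENCODE 29, 7.63% and 16.3% of their exon lengths, and KRT7 shares 282 bases (6.89%) with its antisense gene KRT7-AS. KRT13 shares 476 bases (16.3%) with ENSG00000229732 on the other strand. The labels and the study's methods name different versions of the library kit, so whether reads were counted by strand is not settled, and without strand such reads cannot be told apart. Processed pseudogenes took few counts beside their parents, at 0.929% to 1.36% of the counts of KRT8, 0.306% to 1.17% of KRT18 and at most 0.00464% of KRT19, and up to 11.1% of KRT17 where it was almost absent.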

How the data were processed

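For each experiment the authors deposited a matrix of unnormalized whole-number read counts over 61860 Ensembl identifiers. Per the study's methods, polyadenylated mRNA was sequenced as paired reads of 150 bases on a DNBSEQ instrument. The submitters' processing notes list the builds hg 38 and mm 10 without a role, and aligner, counter and annotation are not given in the sources used here. Samples were grouped by their titles. In the HA-TRIM15 file, 3 of 10 header cells are empty, so columns were taken by number. Symbols matched 99.8% of identifiers, and all 37 mitochondrial genes are listed at 0.

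Software was edgeR 4.0.16 and DESeq2 1.42.0 with limma 3.58.1 under R 4.3.3. Genes passing filterByExpr (minimum count 10, minimum total count 15) were scaled by TMM and compared within each experiment by edgeR's quasi-likelihood test, with p-values adjusted by Benjamini-Hochberg over all genes tested (threshold 0.05). SE is the log2 fold change over the square root of F. The study states no test for these counts. Differences between experiments and levels on 1 scale came from a fit of all 24 libraries with 8 group means. Library totals ranged from 14299807 to 45994561. No replicates agreed within sampling noise (chi-square per gene of at least 1.47). The text names the 10 keratins, their near copies, the targeted genes and, of each list (other keratins, cornified envelope, desmosome and linkers, other intermediate filaments, differentiation regulators, and markers of epithelial, fibroblast, endothelial, immune, adipocyte and epidermal cells), up to 3 genes per experiment with the largest called change and a mean of at least 1 CPM. A gene that this rule would name is not reported here. The keratins and the lists were chosen with earlier results of these data known. Near copies were aligned with Biopython 1.88. The main fit of each experiment and the difference between the knockdowns were also run on simulated counts. The alternative fits and the difference between HFD and HA-TRIM15 were not.

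Replicate numbers appeared to pair libraries in the shFOXRED1 experiment. There, deviations from the group means (genes with a mean of at least 100 counts) correlated at 0.181, 0.119 and 0.350 between same-numbered libraries, all above 0.1. The labels give no reason for it. The main fit of every experiment, this one included, used the group only. The SEs and p-values printed for shFOXRED1 therefore leave this pairing out, and a replicate block was run only as an alternative. In each of the other experiments at least 1 number was below that limit. Alternatives were DESeq2's size factors and Wald test, other count filters, a replicate block, 24 or 12 libraries in a fit, near copies added, library sizes without keratins, a fold change of at least 1.2 and leaving out each library. The length of all exons, for shares and ratios, and list counts without replicate 3 of shFOXRED1 were added as alternatives after seeing the data.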

Additional observations from a re-analysis of the deposited data

How the results depend on the processing

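The counts of called keratins were 6 in HFD, 3 with HA-TRIM15, 7 with shYY2 and 3 with shFOXRED1, and 5 and 6 for the differences between the knockdowns and between HFD and HA-TRIM15. A fold change of at least 1.2 left 1 with HA-TRIM15 and 0 with shFOXRED1, since their other calls were smaller than that. Leaving out each library in turn gave 6 in HFD, 3 to 4 with HA-TRIM15, 6 to 7 with shYY2, 3 to 4 with shFOXRED1, 3 to 5 for the knockdowns (the count of 5 includes KRT6A and KRT17, which were not measured with shFOXRED1 and were lost without its replicate 1) and 5 to 6 for HFD and HA-TRIM15. With a replicate block the counts were 6, 4, 7, 3, 5 and 7. The block changed no keratin call in the shFOXRED1 experiment, where the numbers pair libraries. In the others, KRT19 passed under it with HA-TRIM15 (adjusted p = 0.0437) and in the difference between HFD and HA-TRIM15 (adjusted p = 0.0111). With the length of all exons the KRT19 share was 83.4% in ND and 80.1% in EV. It was 76.5% and 86.4% in the shControl groups of the shYY2 and shFOXRED1 experiments. Ratios between keratins moved in each group. The direction between treated and control groups stayed for the KRT19 share and the type I to type II ratio. For ratios of single genes it could not change. Adding near copies to KRT6A made its change 6.15-fold in place of 14.1-fold with shYY2 and 2.21-fold in place of 2.92-fold in HFD. Signs that turned when a library was left out belonged to values that had not passed, namely KRT13 (-0.29 to 0.70) and KRT18 (-0.078 to 0.010) in the difference between the knockdowns and KRT19 with shFOXRED1 (-0.015 to 0.097). Depth limits KRT13, with 3 to 56 counts per library, and KRT4, KRT5 and KRT20, which were not measurable.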

Other observations

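Of 10 epithelial markers, 5, 6, 9 and 4 were higher and 2, 0, 1 and 0 lower in HFD, HA-TRIM15, shYY2 and shFOXRED1, or 70%, 60%, 100% and 40% called beside 49.5%, 22.1%, 75% and 36.6% of all genes. With shFOXRED1 that share was near the background, and without its replicate 3 it was 70% beside 41.9%. The adhesion protein CDH1 fell in HFD (log2 -0.31) and rose with HA-TRIM15 (0.23). The barrier claudin CLDN4 rose with shYY2, from 1053 ± 36.9 to 1964 ± 43.2 CPM (log2 0.90, adjusted p = 2.04e-13), and the mucin MUC1 rose with shFOXRED1, from 13.1 ± 2.24 to 29.9 ± 2.33 CPM (log2 1.19, adjusted p = 4.40e-07).

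Of the lists of other cell types, 3 immune markers were tested in each experiment, with 1 higher and 1 lower in HFD, 1 higher with HA-TRIM15, 1 lower with shYY2 and 0 called with shFOXRED1, beside 49.5%, 22.1%, 75% and 36.6% of all genes called. The HA-TRIM15 call was that of ITGAM (log2 0.35, adjusted p = 0.0365), which held in 1 of the 6 fits that leave out a library (adjusted p up to 0.157). Of the adipocyte markers, 0 of 3 tested were called in HFD and 0 of 3 with HA-TRIM15. With shYY2, 3 of 4 were higher, or 75%, the same share as of all genes. Among them were PLIN4 and PNPLA2, which act on lipid droplets (log2 2.87 and 1.58). With shFOXRED1, 1 of 3 was higher, PNPLA2 (0.50), beside 36.6% of all genes called. Without replicate 3 of shFOXRED1, 2 of 3 were, beside 41.9%. The fibroblast marker COL1A1 rose with shYY2 (2.00) and shFOXRED1 (0.71) and fell in HFD (-0.33), and the endothelial marker ENG was lower in the 3 experiments on cultured cells (-0.20, -0.34 and -0.19), with shFOXRED1 in only 2 of the 6 fits that leave out a library (adjusted p up to 0.182). Of the epidermal markers, 3 were tested in HFD, with HA-TRIM15 and with shYY2 and 1 with shFOXRED1, of which 1, 1, 0 and 0 were higher and 1, 0, 2 and 0 lower. KRT14 was the one called higher, and KRT14 and KRT10 (log2 -0.28) were lower with shYY2.

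Genes most like a keratin across the 24 libraries were ranked by Pearson's r of log2 CPM after subtracting the mean of the own control group, over 14519 genes and with no test, since libraries of a group share a treatment. KRT8 was most like SCARB1 (0.990), PPIA (0.987) and PRDX2 (0.985). KRT18 was most like GLI2 (0.969), IMPDH1 (0.968) and BCR (0.967), and KRT7 most like SLCO4A1 (0.962), AKAP7 (0.961) and PMEPA1 (0.955). KRT19 was most like SERINC2 (0.988), LLGL2 (0.987) and HS6ST1 (0.985), and KRT13 most like MMP10 (0.8501), DDX19B (0.8498) and MAP3K9-DT (0.838). Among the keratins themselves, KRT8 and KRT18 had an r of 0.897, KRT7 and KRT18 of 0.863, and KRT8 and KRT19 of -0.645.

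The shControl group of the shFOXRED1 experiment, in which KRT17 was near absent, also held 3 genes at 10 CPM or more that were under 1 CPM in the other 3 control groups. They were PELI2 at 14.9 CPM, LINC02246 at 20.3 CPM and ENSG00000288927 at 21.9 CPM, named after their values were seen. For each of the other control groups 0 genes met either condition.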
